A study of Mus musculus with 20 samples.

Results

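The genes described here are the axon guidance ligands and receptors measured in mouse pancreatic ductal adenocarcinoma, a tumour of the exocrine pancreas. They were taken by gene symbol from the 8 families of semaphorins, plexins, neuropilins, Slit ligands, Robo receptors, Eph receptors, ephrins and netrins. The symbols gave 59 of the 20636 genes in the expression table, which were 20 semaphorins, 9 plexins, 2 neuropilins, 3 Slit ligands, 4 Robo receptors, 11 Eph receptors, 7 ephrins and 3 netrins. Some genes of these families, among them the EphA receptor Epha2, lie outside the symbol rule. Every share of a family or rank within it given below is therefore among these members. Epha6 and Ntn3 are not analysed here.

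RNA was sequenced from tumour tissue of 3 genotypes, 5 tumours of each, numbered 1 to 5 within a genotype. All mice carried the KrasLSL-G12D allele, which is silent until Cre recombinase removes a stop cassette, a homozygous Rosa26LSL-tdTomato reporter and Ptf1aCreER, which provides tamoxifen-dependent Cre in acinar cells, where the pancreas makes its digestive enzymes. KPAT mice had in addition floxed Trp53 (Trp53fl/fl) and floxed Arf at the Cdkn2a locus (Arf-fl/fl), KAT mice Arf-fl/fl with no floxed Trp53, and KPT mice Trp53fl/fl with no floxed Arf. The mice were 8 to 10 weeks old when they received 5 mg tamoxifen by gavage on each of 3 days, and they were then kept until they became morbid, so age at collection was not set by the design. Cre acts in acinar cells and their progeny, while the RNA also comes from fibroblasts, vessels and immune cells, in which this Cre is not driven. The 5 KT tumours, with neither suppressor floxed, are not analysed here.

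Libraries held 14696138 to 26248484 gene-assigned reads. Levels are given in deposited units, which are reads divided by a factor for each library, while each fold change is the limma estimate for log2(normalized count + 1), a scale that understates changes of low genes. A gene is said to be called, to have risen or to have fallen where the two-sided limma test had an adjusted p below 0.05 (Benjamini-Hochberg over the 16648 genes tested). The floxed gene Trp53 was at 32.9 to 57.2 in KPAT tumours, 99 to 148 in KAT tumours and 22.7 to 26.3 in KPT tumours, without overlap between genotypes. Cdkn2a was at 268 to 907 in KPAT tumours, 150.0 to 689.9 in KAT tumours and 216 to 335 in KPT tumours. It was called in no comparison, and a count over the whole gene, which also encodes p16, does not check the deletion of Arf. In the labels each genotype has its own range of library numbers, and a batch along those numbers and the genotype cannot be told apart.

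Guidance molecules were first described as cues that attract or repel the growing tips of axons, and they also steer migrating cells, blood vessels and epithelial sheets. Semaphorins signal through plexins, with neuropilins as co-receptors of the secreted class 3 members. Slit proteins bind Robo receptors, netrins bind receptors that include the Unc5 family, and membrane-bound ephrins bind Eph receptor tyrosine kinases on neighbouring cells and can also signal back into their own cell. In pancreatic cancer these families are known for changes in their genes and for links to nerve invasion and tumour spread.

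More members rose than fell in both genotypes with floxed Arf, set against KPT tumours. Of the 58 members over the minimum level (Epha8 was below it), 16 were called in KPAT against KPT tumours, 13 higher and 3 lower, where 16.5% of all tested genes were called, 9.13% higher and 7.4% lower. In KAT against KPT tumours 24 members were called, 20 higher and 4 lower, where 28.9% of all tested genes were called, 15.6% higher and 13.3% lower. The median log2 fold change of the members was 0.29 in KPAT against KPT tumours, beside 0.016 over all tested genes, and 0.45 in KAT against KPT tumours, beside 0.026 over all tested genes. The KPT tumours serve in both comparisons, so the pair of results is not independent. The tumours of the compared genotypes did not overlap for 12 members in KPAT against KPT tumours, beside 9.97% of all tested genes, and for 14 members in KAT against KPT tumours, beside 17.6%.

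A total of 15 members were called in both comparisons, 1 (Epha3) in KPAT against KPT tumours alone and 9 in KAT against KPT tumours alone, which says nothing of a difference between the KPAT and KAT responses. The remaining 33 tested members were called in neither. KPAT tumours set directly against KAT tumours gave no called member.

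**Figure D1:**
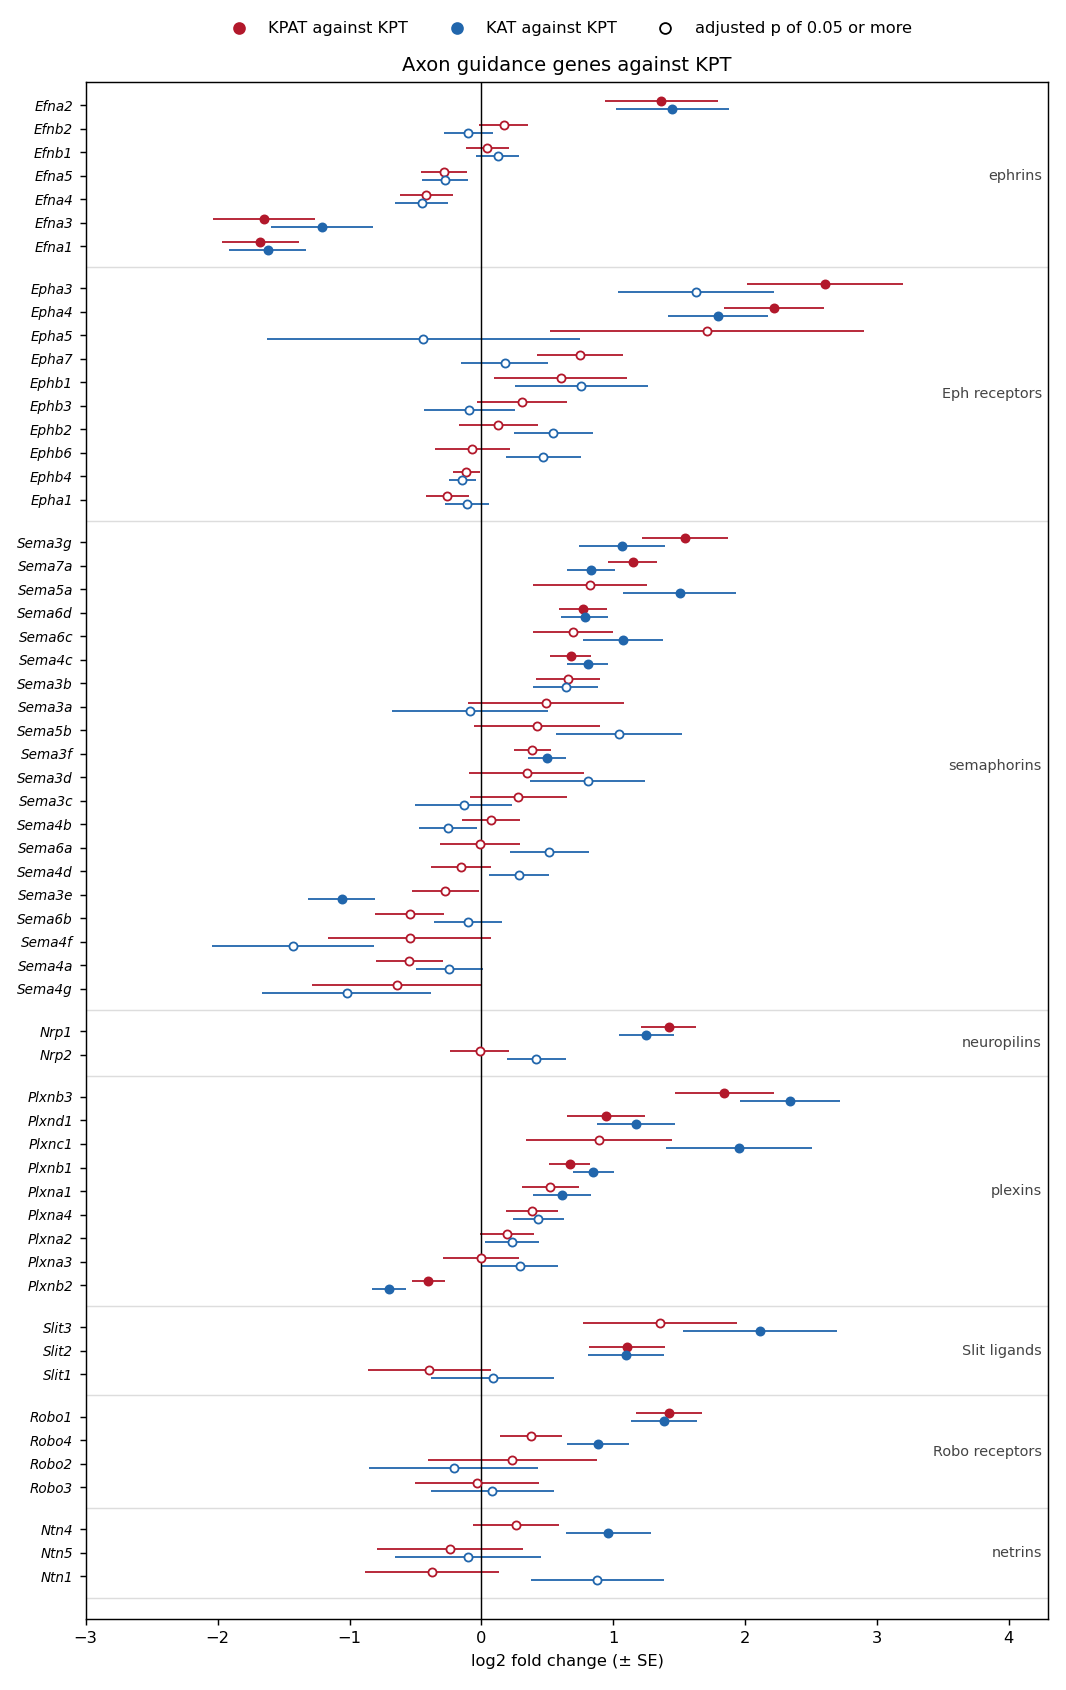
Log2 fold change of each of the 58 tested members on the x axis, for KPAT against KPT tumours (red) and KAT against KPT tumours (blue), with bars for the SE. Filled points are called at an adjusted p below 0.05 (16 and 24 members) and open points are not. Most filled points lie to the right of 0, while Efna1, Efna3 and Plxnb2 lie to its left in both comparisons.

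Markers of other cell types differed between the genotypes as well. Of 12 fibroblast markers, 8 rose in KPAT against KPT tumours and 12 in KAT against KPT tumours, and their summed level was 6096 to 16031 in KPAT tumours, 7538 to 10828 in KAT tumours and 1187 to 4852 in KPT tumours, with no overlap of KPT tumours with the others. Of 11 macrophage markers, 6 and 8 rose in these comparisons, with sums of 932 to 1912 in KPAT tumours, 1686 to 3167 in KAT tumours and 618 to 1088 in KPT tumours. Of 12 endothelial markers 2 and 5 rose, with overlapping sums of 299.5 to 566 in KPAT tumours, 281 to 838 in KAT tumours and 224 to 488 in KPT tumours. Of 8 mural cell markers, those of pericytes and vascular smooth muscle, 2 and 6 rose, with sums of 306 to 606 in KPAT tumours, 336 to 808 in KAT tumours and 159 to 307 in KPT tumours. In the other direction, 3 and 6 of 12 ductal epithelium markers fell, with sums of 8459 to 11209 in KPAT tumours, 7472 to 12080.2 in KAT tumours and 11745 to 20601 in KPT tumours. Genes of hypoxia and glycolysis fell too, 10 and 11 of 12, with sums of 1178 to 1550.2 in KPAT tumours, 935 to 2836 in KAT tumours and 1792 to 4678 in KPT tumours. Of 8 intestine markers 3 fell in each comparison, with sums of 427 to 1331 in KPAT tumours, 387 to 2881 in KAT tumours and 1148 to 4890.1 in KPT tumours. Of 9 tested endocrine markers 1 rose in KPAT and 3 rose in KAT against KPT tumours, with sums of 4.3 to 327 in KPAT tumours, 25.4 to 729 in KAT tumours and 8.11 to 42.6 in KPT tumours. Of 5 B cell markers 1 rose in KAT against KPT tumours, and their median log2 fold change was -1.41 in KPAT and 1.61 in KAT against KPT tumours, with sums of 0.912 to 11.1 in KPAT tumours, 1.15 to 87.4 in KAT tumours and 3.99 to 21.7 in KPT tumours. No marker of these lists was at 0 in all tumours of a genotype. Of the markers of Schwann cells, the glia of nerves, 6 of 10 were over the minimum level, 1 fell in KPAT against KPT tumours and 1 rose in KAT against KPT tumours. In bulk RNA, fewer cells of a type and less RNA per cell cannot be told apart.

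A cell type level used as a covariate was the mean log2(normalized count + 1) of its markers, not their sum. With the fibroblast level of each tumour as a covariate, 3 members were called in KPAT against KPT tumours (Efna1, Efna3 and Efna5). All tested genes gave 180 calls there in place of 2752. The same fit for KAT against KPT tumours called 6 members, which were Efna1, Efna3, Plxna1, Plxnb2, Plxnb3 and Efna5, and 844 genes in all in place of 4805. Of the 16 members called without the covariate in KPAT against KPT tumours, 10 kept at least 2/3 of their log2 fold change with it, and of the 24 in KAT against KPT tumours 14 did. In KPAT against KPT tumours, for example, Plxnb1 had 0.66 with the covariate and 0.67 without, and Epha4 2.00 with and 2.22 without, while Efna2 had 0.16 with and 1.36 without. With the ductal level as a covariate, Nrp1 and Sema7a were called in KPAT against KPT tumours, beside 128 genes in all. In KAT against KPT tumours that fit called 8 members, Nrp1, Ntn4, Plxnc1, Robo4, Sema4c, Sema6d, Sema7a and Efnb1, beside 1344 genes in all. At least 2/3 of the log2 fold change was kept with the ductal level by 13 of the 16 and 19 of the 24 members. With the endothelial level, 16 members were called in KPAT against KPT tumours, beside 2901 genes in all, and 14 in KAT against KPT tumours, beside 3307. Of these, 14 and 13 were calls of the fit without it. The fibroblast sum separates KPT tumours from the others without overlap. The ductal sum separates KPT from KPAT tumours in the same way, while KAT and KPT tumours overlap in it. As covariates, the fibroblast level averaged 12.4 in KPAT, 12.5 in KAT and 10.9 in KPT tumours, and the ductal level 13.2, 13.1 and 13.7. In both fits the genotype and the level of the cell type cannot be fully told apart.

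Among the ephrins, Efna1 and Efna3 fell in both genotypes with floxed Arf, and Efna2 rose. These are GPI-anchored ligands of EphA receptors. Efna1 (ENSMUSG00000027954) was at 60.4, 51.2, 57.1, 66.3 and 45.7 in KPAT tumours 1 to 5, at 76.5, 65.4, 56.5, 49 and 46.6 in KAT tumours 1 to 5 and at 328, 286, 88.4, 178 and 121 in KPT tumours 1 to 5. Every KPAT and KAT tumour lay below every KPT tumour, and KPT 1 and KPT 2 stood well above the other KPT tumours. Efna1 fell in KPAT against KPT tumours (log2 fold change -1.68, SE 0.29, limma adjusted p = 0.00352) and in KAT against KPT tumours (log2 fold change -1.62, SE 0.29, limma adjusted p = 0.00147). The calls held without any 1 library. They also held with the fibroblast level as a covariate, where the log2 fold changes against KPT tumours were -2.25 in KPAT and -2.22 in KAT. With the ductal level both calls were lost, at -1.04 in KPAT (limma adjusted p = 0.144) and -0.88 in KAT (adjusted p = 0.173). The hypoxia and glycolysis sums of KPT tumours 1 to 5 were 3929, 4678, 1792, 2988 and 4233. KPT 3 was lowest in both that sum and Efna1, but KPT 5, with the next lowest Efna1, had the next highest sum after KPT 2. The part of hypoxia genes in the result was not tested.

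Efna3 (ENSMUSG00000028039) was a low gene, at 1.16, 2.22, 0.981, 1.61 and 0.669 in KPAT tumours 1 to 5, at 1.36, 2.14, 1.51, 1.78 and 1.70 in KAT tumours 1 to 5 and at 6.67, 5.88, 2.10, 5.20 and 2.23 in KPT tumours 1 to 5, from 11 to 133 reads a library. It fell in KPAT against KPT tumours (log2 fold change -1.65, SE 0.39, limma adjusted p = 0.0121) and in KAT against KPT tumours (log2 fold change -1.21, SE 0.39, limma adjusted p = 0.0298). KPT 3 and KPT 5 were at the level of the highest KPAT and KAT tumours, and the other KPT tumours lay well above them. The KAT call was lost without KAT 1, KAT 3, KAT 4, KAT 5, KPT 1, KPT 2 or KPT 4, with an adjusted p of up to 0.0753 from limma. Of the exon bases of Efna3, 14.13% also belong to Gm15998 on the opposite strand, whose reads cannot be told apart in libraries without strand marking.

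Efna2, another ligand of this class, averaged 2.60 ± 1.65 in KPAT tumours, 2.47 ± 0.942 in KAT tumours and 0.847 ± 0.239 in KPT tumours (SD, n = 5 each), from 10 to 131 reads a library. It rose in KPAT against KPT tumours (log2 fold change 1.36, SE 0.43, limma adjusted p = 0.0410) and in KAT against KPT tumours (log2 fold change 1.45, SE 0.43, limma adjusted p = 0.0209). The KPAT call was lost without KPAT 1, KPAT 2, KPAT 5, KPT 1, KPT 2, KPT 3 or KPT 4 (limma adjusted p up to 0.109), and the KAT call without KAT 4 or KAT 5 (up to 0.0560). Efna4 and Efna5 were not called. Efna4 averaged 37.4 ± 6.56 in KPAT tumours, 36.6 ± 7.19 in KAT tumours and 51.1 ± 13.4 in KPT tumours, with log2 fold changes of -0.42 in KPAT and -0.45 in KAT against KPT tumours. Efna5 averaged 29.8 ± 6.89 in KPAT tumours, 29.4 ± 2.23 in KAT tumours and 36.2 ± 7.47 in KPT tumours, with log2 fold changes of -0.28 in KPAT and -0.27 in KAT. The transmembrane ligands Efnb1 and Efnb2, of which Efnb2 marks arterial endothelium, had log2 fold changes between -0.10 and 0.17 against KPT tumours, and none of these passed the test.

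Efna1, Efna3 and Efna4 lie side by side on the minus strand of chromosome 3 (GRCm38), Efna1 at 89271733 to 89281142, Efna3 at 89313899 to 89322965 and Efna4 at 89333390 to 89338028. Efna1 and Efna3 were called lower, while Efna4 was not called, though its log2 fold changes were also negative. The 250 bases in front of an annotated start of each are printed. Those of Nrp1 follow, the co-receptor described below as higher in both genotypes with floxed Arf. Sequences are from RefSeq (GRCm38.p6, the same build as mm10), 5′ to 3′ on the gene's strand. The windows are chr3:89279646-89279895 for Efna1, chr3:89321769-89322018 for Efna3 and chr3:89338029-89338278 for Efna4, all on the minus strand, and chr8:128358823-128359072 on the plus strand for Nrp1. Those of Efna1 and Efna3 lie within the gene spans given above. The windows of their outer annotated starts, chr3:89280952-89281201 and chr3:89322940-89323189, are not printed. Capitals mark the hypoxia response core ACGTG or GCGTG on either strand.
Efna1: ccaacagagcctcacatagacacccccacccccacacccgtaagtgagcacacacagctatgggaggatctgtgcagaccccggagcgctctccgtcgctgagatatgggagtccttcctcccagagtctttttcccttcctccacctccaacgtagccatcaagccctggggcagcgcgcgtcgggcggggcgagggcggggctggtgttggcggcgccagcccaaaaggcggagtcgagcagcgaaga
Efna3: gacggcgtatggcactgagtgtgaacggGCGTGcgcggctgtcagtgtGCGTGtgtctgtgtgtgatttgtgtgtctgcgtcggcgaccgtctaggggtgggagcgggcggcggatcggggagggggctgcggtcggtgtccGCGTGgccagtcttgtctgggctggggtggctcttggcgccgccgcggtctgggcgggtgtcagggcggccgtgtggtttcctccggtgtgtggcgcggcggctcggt
Efna4: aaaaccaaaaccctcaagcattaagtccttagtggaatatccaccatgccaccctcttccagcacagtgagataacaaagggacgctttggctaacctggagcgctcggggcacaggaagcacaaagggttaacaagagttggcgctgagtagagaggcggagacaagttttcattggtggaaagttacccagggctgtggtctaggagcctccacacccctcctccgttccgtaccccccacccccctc
Nrp1: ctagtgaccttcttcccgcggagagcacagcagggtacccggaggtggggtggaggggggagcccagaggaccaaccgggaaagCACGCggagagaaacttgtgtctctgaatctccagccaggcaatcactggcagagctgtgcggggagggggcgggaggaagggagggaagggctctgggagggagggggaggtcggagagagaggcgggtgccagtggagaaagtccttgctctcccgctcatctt

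The Efna3 window held 3 matches of that core and the window of its other annotated start held 2, while neither Efna1 window nor the Efna4 window held a match, and the Nrp1 window held 1. The core was present in 38.6% of all 32851 RefSeq promoter windows of this length and in 44.1% of the 68 windows of the 52 members that matched the RefSeq table by symbol. It was in 45.5% of the 22 windows (19 genes) of members called higher. For members called lower it was in 28.6% of the 7 windows (4 genes), which were the 2 Efna3 windows just described. The motif CAGGTG, searched on both strands as the E-box of Snail and Zeb proteins, was in 17.2% of all windows and in 14.7% of the members' windows. CACGTG, which overlaps the hypoxia core, was in 6.02% of all windows and 5.88% of the members' windows. A match describes letters in a window and no binding was measured.

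The Eph receptors with the clearest differences were Epha4 and Epha3, both higher in KPAT than in KPT tumours. They are EphA class receptor tyrosine kinases, and Epha4 can also bind ephrin-B ligands. Epha4 was at 39.2, 36.9, 53.9, 38.6 and 72.7 in KPAT tumours 1 to 5, at 61, 46.1, 32.8, 22.9 and 23.6 in KAT tumours 1 to 5 and at 7.83, 9.53, 4.48, 23.4 and 12.4 in KPT tumours 1 to 5. All KPAT tumours lay above all KPT tumours, while KAT tumours overlapped the highest KPT tumour. Epha4 rose in KPAT against KPT tumours (log2 fold change 2.22, SE 0.38, limma adjusted p = 0.00326) and in KAT against KPT tumours (log2 fold change 1.79, SE 0.38, limma adjusted p = 0.00364), and leaving out any 1 library kept both calls.

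Epha3 was at 25.3, 47.2, 11.7, 24.3 and 41.6 in KPAT tumours 1 to 5, at 5.62, 28.4, 9.76, 14.4 and 20.9 in KAT tumours 1 to 5 and at 6.97, 9.14, 2.48, 8.94 and 1.11 in KPT tumours 1 to 5. It rose in KPAT against KPT tumours (log2 fold change 2.60, SE 0.59, limma adjusted p = 0.0103), without overlap. In KAT against KPT tumours its log2 fold change was 1.63 with a limma adjusted p of 0.0502, just outside the threshold. It was called there without KAT 1, KPT 2 or KPT 4, and with KPT 1 and KAT 1 left out together. DESeq2 (adjusted p = 0.0241), a minimum mean of 50 and the replicate block also called it there, while edgeR did not (adjusted p = 0.0593). KPT 5 and KPT 3 held the least Epha3, and KAT 1 lay within the range of KPT tumours.

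Ephb4, the ephrin-B2 receptor known from veins, had the highest level per exon length of the 11 Eph receptors among the members. Its level was nearly even across tumours. It was at 138, 205, 162, 164 and 178 in KPAT tumours 1 to 5, at 162, 171, 164, 170.3 and 154 in KAT tumours 1 to 5 and at 167, 168, 195, 184 and 198 in KPT tumours 1 to 5. Its log2 fold change was -0.12 (SE 0.10) in KPAT against KPT tumours and -0.15 (SE 0.10) in KAT against KPT tumours, neither of them called. The other tested Eph receptors (Epha1, Epha5, Epha7, Ephb1, Ephb2, Ephb3 and Ephb6) were not called either. Epha1 averaged 33.6 ± 5.82 in KPAT tumours, 37 ± 4.46 in KAT tumours and 40.6 ± 9.16 in KPT tumours, and 6.008% of its exon bases are shared with Zyx on the opposite strand. Ephb2 ran from 42 to 105 in KPAT tumours, 68.8 to 136 in KAT tumours and 47.2 to 115 in KPT tumours, and Ephb3 from 36.1 to 124 in KPAT tumours, 26.4 to 83.4 in KAT tumours and 38.6 to 61.7 in KPT tumours. Epha5 was at 0.545 to 5.70 (median 1.26) in KPAT tumours, 0 to 0.933 (median 0.679) in KAT tumours and 0.0502 to 8.36 (median 0.223) in KPT tumours, so single KPAT and KPT tumours stood out. Epha8, the untested member, had from 0 to 21 reads in a library.

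**Figure D2:**
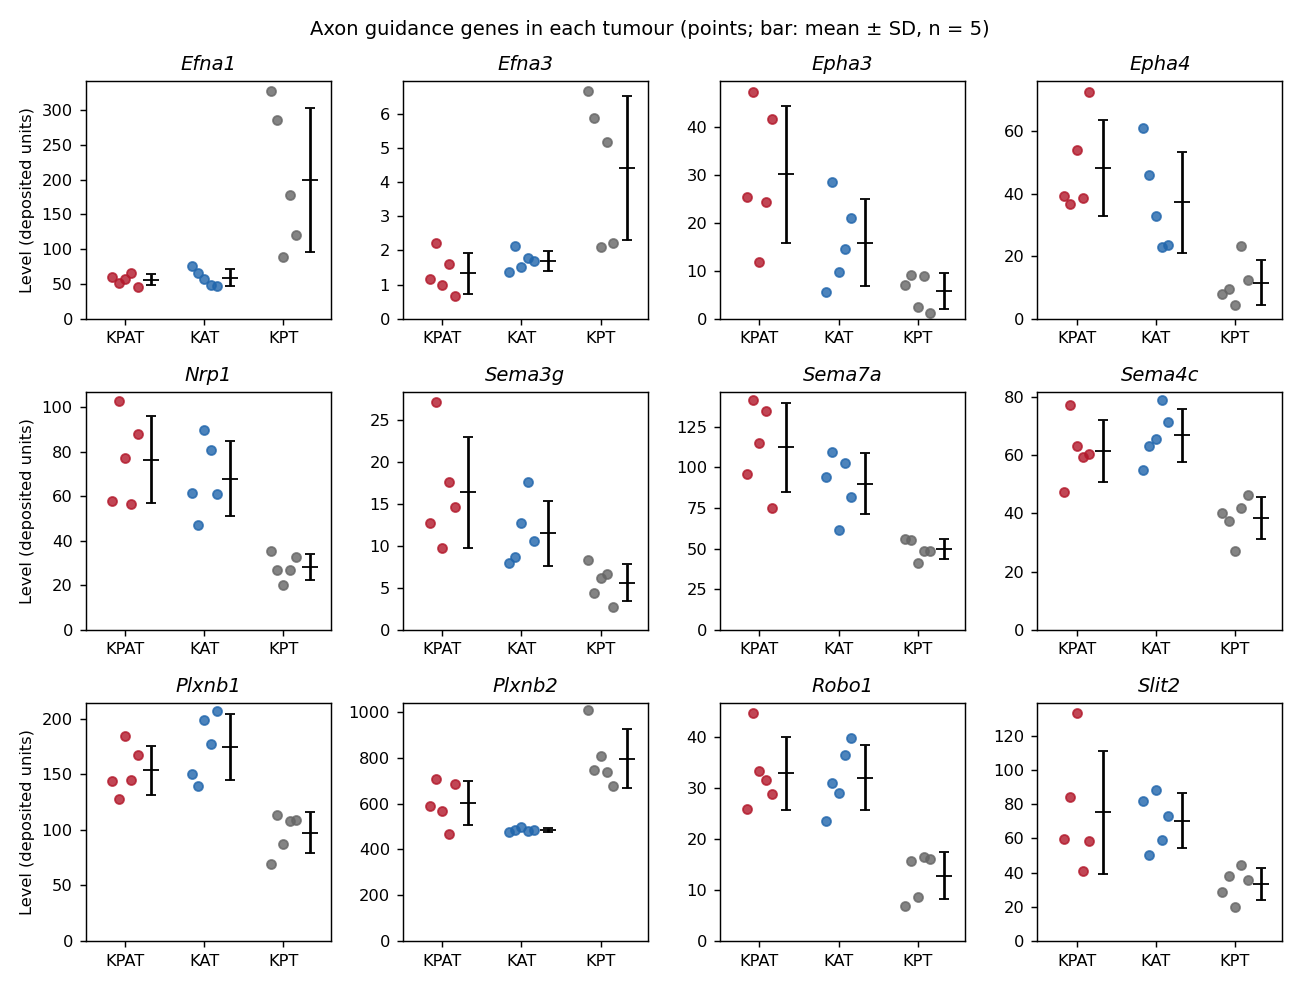
Level in deposited units on the y axis of 12 members in each tumour, with KPAT, KAT and KPT tumours from left to right, points for single tumours and bars for mean ± SD (n = 5 each). Efna1 is high in KPT tumours, where it spreads from 88.4 to 328, and Nrp1 is low in KPT tumours, at 20.1 to 35.4.

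The neuropilin Nrp1, a co-receptor of class 3 semaphorins and of vascular endothelial growth factor, rose in both comparisons with KPT tumours and had the smallest p of the members in KPAT against KPT tumours. Nrp1 (ENSMUSG00000025810) was at 58, 103, 77.4, 56.7 and 87.8 in KPAT tumours 1 to 5, at 61.3, 47.3, 89.7, 80.6 and 61.1 in KAT tumours 1 to 5 and at 35.4, 26.9, 20.1, 26.7 and 32.6 in KPT tumours 1 to 5. No KPAT or KAT tumour overlapped a KPT tumour. The difference was called in KPAT against KPT tumours (log2 fold change 1.42, SE 0.21, limma adjusted p = 0.00190) and in KAT against KPT tumours (log2 fold change 1.25, SE 0.21, limma adjusted p = 0.000963). With the fibroblast level as a covariate the log2 fold changes were 0.94 (limma adjusted p = 0.124) and 0.76 (adjusted p = 0.151), and with the ductal level both calls held. Its relative Nrp2 was not called. It averaged 84.2 ± 34.8 in KPAT tumours, 107 ± 18 in KAT tumours and 79.5 ± 6.56 in KPT tumours, with log2 fold changes of -0.01 (SE 0.23) in KPAT and 0.42 (SE 0.23) in KAT against KPT tumours.

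Of the 20 semaphorins, 4 rose in KPAT against KPT tumours and none fell by the limma test, while in KAT against KPT tumours 7 rose and 1 fell. Sema7a, a GPI-anchored semaphorin known to act through integrins and plexin C1, was at 96, 141, 115, 135 and 75.3 in KPAT tumours 1 to 5, at 94, 109, 61.6, 103 and 81.9 in KAT tumours 1 to 5 and at 56, 55.1, 41, 48.5 and 48.6 in KPT tumours 1 to 5. Sema7a rose in KPAT against KPT tumours (log2 fold change 1.15, SE 0.18, limma adjusted p = 0.00264) and in KAT against KPT tumours (log2 fold change 0.83, SE 0.18, limma adjusted p = 0.00463), without overlap in either. Both calls held with the ductal level as a covariate. With the fibroblast level they were lost, at log2 fold changes of 0.93 in KPAT and 0.61 in KAT against KPT tumours.

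Sema4c, a transmembrane ligand of plexin B2, was at 47.2, 77.4, 63, 59.4 and 60.3 in KPAT tumours 1 to 5, at 54.8, 63.4, 65.8, 79.1 and 71.5 in KAT tumours 1 to 5 and at 40.1, 37.5, 27.1, 41.9 and 46.3 in KPT tumours 1 to 5. Sema4c rose in KPAT against KPT tumours (log2 fold change 0.68, SE 0.16, limma adjusted p = 0.0117) and in KAT against KPT tumours (log2 fold change 0.81, SE 0.16, limma adjusted p = 0.00229), with all KPT tumours below the others. Of its exon bases, 7.272% are shared with D430040D24Rik on the opposite strand, whose reads cannot be told apart.

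Sema6d, a transmembrane ligand of plexin A1, was at 25.6, 32.2, 39.7, 31 and 25.2 in KPAT tumours 1 to 5, at 37.5, 29.6, 27, 33.7 and 26.4 in KAT tumours 1 to 5 and at 19.9, 21.2, 14.6, 22.5 and 12.7 in KPT tumours 1 to 5. Sema6d rose in KPAT against KPT tumours (log2 fold change 0.77, SE 0.18, limma adjusted p = 0.0122) and in KAT against KPT tumours (log2 fold change 0.78, SE 0.18, limma adjusted p = 0.00595), without overlap. Sema3g, a secreted class 3 semaphorin, was at 12.7, 27.1, 9.81, 17.6 and 14.7 in KPAT tumours 1 to 5, at 8.01, 8.73, 12.7, 17.7 and 10.5 in KAT tumours 1 to 5 and at 8.33, 4.41, 6.15, 6.60 and 2.67 in KPT tumours 1 to 5. The KPAT difference was called without overlap (log2 fold change 1.55, SE 0.33, limma adjusted p = 0.00830), and the KAT difference was called (log2 fold change 1.07, SE 0.33, limma adjusted p = 0.0250) although the lowest KAT tumour lay below the highest KPT tumour. That KAT call was lost without KAT 3, KAT 4, KPT 2 or KPT 5 (limma adjusted p up to 0.0687) and under quantile scaling.

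Sema3e, a secreted ligand that binds plexin D1 without a neuropilin, was the semaphorin that fell in KAT tumours. It was at 42.4, 39.6, 25.1, 20.5 and 37.8 in KPAT tumours 1 to 5, at 24.6, 19.4, 12.6, 18.8 and 18.8 in KAT tumours 1 to 5 and at 41.4, 56.8, 33.5, 45 and 23.8 in KPT tumours 1 to 5. The KAT tumours were the lowest, overlapping the lowest KPT tumour and the lowest KPAT tumour. Sema3e fell in KAT against KPT tumours (log2 fold change -1.06, SE 0.25, limma adjusted p = 0.00739), while KPAT tumours were close to KPT tumours (log2 fold change -0.27, SE 0.25, limma adjusted p = 0.486). Its direct KPAT against KAT difference was 0.79 (SE 0.25, limma adjusted p = 0.302), the smallest p of the members in that comparison but not a call.

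Sema3f, a secreted ligand that prefers Nrp2, had the highest level per exon length of the semaphorins. It was at 113, 128, 174, 139 and 159 in KPAT tumours 1 to 5, at 179.9, 142, 166, 143 and 136 in KAT tumours 1 to 5 and at 129.8, 123, 96.6, 85.9 and 111 in KPT tumours 1 to 5. It rose in KAT against KPT tumours without overlap (log2 fold change 0.50, SE 0.14, limma adjusted p = 0.0171), and in KPAT against KPT tumours the log2 fold change was 0.38 with a limma adjusted p of 0.0742. The transmembrane semaphorins Sema5a and Sema6c were also called in KAT against KPT tumours. Sema5a averaged 67.5 ± 10.2 in KPAT tumours, 118 ± 54.4 in KAT tumours and 48.1 ± 40.8 in KPT tumours (log2 fold change 1.50, SE 0.43, limma adjusted p = 0.0178), and 1 KPT tumour at 117 overlapped the KAT tumours, beside a KPT median of 29.7. Sema6c averaged 7.39 ± 2.19 in KPAT tumours, 9.59 ± 2.58 in KAT tumours and 4.67 ± 1.71 in KPT tumours (log2 fold change 1.07, SE 0.30, limma adjusted p = 0.0163), and its call was lost under quantile scaling.

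The 12 remaining semaphorins (Sema3a to Sema3d, Sema4a, Sema4b, Sema4d, Sema4f, Sema4g, Sema5b, Sema6a and Sema6b) were called in no comparison. Among them Sema3c, a secreted class 3 ligand, was at 85.2 to 234 in KPAT tumours, 55.7 to 239.6 in KAT tumours and 96.7 to 148 in KPT tumours. Sema4d, the plexin B1 ligand also known from T cells as CD100, averaged 46.4 ± 11.1 in KPAT tumours, 62.4 ± 10.1 in KAT tumours and 53.2 ± 17.7 in KPT tumours. Sema4g spread widely at 19.8 to 147 in KPAT tumours and 40.9 to 259.5 in KPT tumours. In KAT tumours it was at 261 in KAT 1 and at 33.3 to 40.5 in the others. Without KAT 1 it was called in KAT against KPT tumours. Sema3b came nearest to a call, with a log2 fold change of 0.64 in KAT against KPT tumours (limma adjusted p = 0.0621) and 0.66 in KPAT against KPT tumours (adjusted p = 0.0788).

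Among the 9 plexins, the receptors of semaphorins, 3 rose and 1 fell in KPAT against KPT tumours, and 5 rose and 1 fell in KAT against KPT tumours. Plxnb2, the receptor of Sema4c and the member with the highest level per exon length, was the one that fell. It was at 588, 707, 568, 469 and 687 in KPAT tumours 1 to 5, at 475, 486, 499, 482 and 486 in KAT tumours 1 to 5 and at 1012, 749, 808, 738 and 679 in KPT tumours 1 to 5. The KAT tumours were tightly grouped below all KPT tumours, and KPAT 2 and KPAT 5 lay above KPT 5. Plxnb2 fell in KAT against KPT tumours (log2 fold change -0.70, SE 0.13, limma adjusted p = 0.00153) and in KPAT against KPT tumours (log2 fold change -0.40, SE 0.13, limma adjusted p = 0.0433). The KPAT call was lost without KPAT 1, KPAT 3, KPAT 4, KPT 1, KPT 2 or KPT 3 (limma adjusted p up to 0.101), and under quantile scaling its log2 fold change was -0.26.

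Plxnb1, the receptor of Sema4d, went the other way. It was at 144, 128, 185, 145 and 167 in KPAT tumours 1 to 5, at 150.2, 139.5, 199, 177 and 207 in KAT tumours 1 to 5 and at 69.6, 113, 87.2, 108 and 108 in KPT tumours 1 to 5. It rose in KPAT against KPT tumours (log2 fold change 0.67, SE 0.16, limma adjusted p = 0.0116) and in KAT against KPT tumours (log2 fold change 0.85, SE 0.16, limma adjusted p = 0.00158), without overlap. Of its exon bases, 2.68% lie opposite Gm7628. Plxnb3, a receptor of Sema5a, was at 0.909, 0.889, 1.25, 0.470 and 0.547 in KPAT tumours 1 to 5, at 0.890, 1.48, 1.25, 1.48 and 0.659 in KAT tumours 1 to 5 and at 0.100, 0.192, 0.270, 0.176 and 0.178 in KPT tumours 1 to 5. These were only 2 to 34 reads a library, yet no KPAT or KAT tumour overlapped a KPT tumour, and it rose in KPAT against KPT tumours (log2 fold change 1.84, SE 0.38, limma adjusted p = 0.00730) and in KAT against KPT tumours (log2 fold change 2.34, SE 0.38, limma adjusted p = 0.000771).

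Plxnd1, the receptor of Sema3e known from endothelium, was at 119, 192, 119, 105 and 116 in KPAT tumours 1 to 5, at 88.3, 121, 154, 247 and 176 in KAT tumours 1 to 5 and at 91.1, 85.2, 75.6, 32.4 and 64.7 in KPT tumours 1 to 5. It rose in KPAT against KPT tumours (log2 fold change 0.95, SE 0.30, limma adjusted p = 0.0403), where KPAT 2 stood far above the other KPAT tumours, and in KAT against KPT tumours (log2 fold change 1.17, SE 0.30, limma adjusted p = 0.00954). The KPAT call was lost without KPAT 1, KPAT 2, KPAT 3, KPAT 5, KPT 3, KPT 4 or KPT 5 (limma adjusted p up to 0.103), and both calls were lost with the endothelial level as a covariate, at 0.67 in KPAT and 0.66 in KAT. KPAT 2 also had the highest endothelial and fibroblast sums of the KPAT tumours, 566 and 16031.

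Plxna1, a partner of neuropilins and receptor of Sema6d, averaged 169 ± 50.9 in KPAT tumours, 178 ± 45.5 in KAT tumours and 116 ± 25.7 in KPT tumours, and Plxnc1, the Sema7a receptor, 5.05 ± 3.42 in KPAT tumours, 8.68 ± 3.98 in KAT tumours and 2.14 ± 0.792 in KPT tumours. Both rose in KAT against KPT tumours (Plxna1, log2 fold change 0.61, SE 0.22, limma adjusted p = 0.0464, and Plxnc1, log2 fold change 1.95, SE 0.55, limma adjusted p = 0.0173). The Plxna1 call was lost without KAT 1, KAT 2, KAT 3, KPT 1, KPT 2 or KPT 5 (adjusted p up to 0.108), and 10.71% of its exon bases lie opposite Gm26811. In KPAT against KPT tumours the log2 fold change was 0.52 for Plxna1 and 0.89 for Plxnc1, neither called. Plxna2, Plxna3 and Plxna4, the other class A plexins, had log2 fold changes of at most 0.43 against KPT tumours, none of them called.

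The Slit ligands and Robo receptors rose in part. Robo1, a receptor of Slit2, was at 26, 44.8, 33.5, 31.5 and 28.8 in KPAT tumours 1 to 5, at 23.6, 31, 29.1, 36.6 and 39.8 in KAT tumours 1 to 5 and at 6.92, 15.8, 8.69, 16.5 and 16 in KPT tumours 1 to 5. Every KPAT and KAT tumour lay above every KPT tumour, and it rose in KPAT against KPT tumours (log2 fold change 1.42, SE 0.25, limma adjusted p = 0.00346) and in KAT against KPT tumours (log2 fold change 1.39, SE 0.25, limma adjusted p = 0.00137). Slit2, a secreted ligand, averaged 75.3 ± 36 in KPAT tumours, 70.5 ± 15.9 in KAT tumours and 33.4 ± 9.45 in KPT tumours, and rose in the same comparisons (log2 fold change 1.10, SE 0.29, limma adjusted p = 0.0186 for KPAT, and log2 fold change 1.10, SE 0.29, limma adjusted p = 0.0115 for KAT). KAT tumours did not overlap KPT tumours for Slit2, and the KAT call was lost with KPT 1 and KAT 1 left out together.

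Slit3, the ligand with the highest level per exon length of the Slit and Robo genes, was at 135, 299, 55.7, 78.7 and 94.8 in KPAT tumours 1 to 5, at 96.4, 175, 349, 232 and 169 in KAT tumours 1 to 5 and at 73.5, 78.8, 9.82, 27.6 and 96.9 in KPT tumours 1 to 5. Its tumours overlapped in both comparisons, and KPT 3 and KPT 4 were lowest. Slit3 rose in KAT against KPT tumours (log2 fold change 2.11, SE 0.59, limma adjusted p = 0.0157), and in KPAT against KPT tumours its log2 fold change was 1.35 with a limma adjusted p of 0.125. With the fibroblast level as a covariate the KPAT value was -1.03 (limma adjusted p = 0.285) and the KAT value -0.35 (adjusted p = 0.723), both in the other direction and not called. Robo4, a receptor of endothelial cells, averaged 16.6 ± 3.64 in KPAT tumours, 24.1 ± 7.23 in KAT tumours and 12.9 ± 3.64 in KPT tumours and rose in KAT against KPT tumours (log2 fold change 0.89, SE 0.23, limma adjusted p = 0.0122). That call was lost with the endothelial level as a covariate, where the log2 fold change was 0.37. Robo2, Robo3 and Slit1 were not called. Robo2 was at 2.93 to 5.97 in KPAT tumours, 0.714 to 12.6 in KAT tumours and 0.891 to 5.77 in KPT tumours.

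Of the 3 netrins, Ntn4, a netrin of basement membranes, was called in KAT against KPT tumours. It was at 45.8, 44.6, 24.4, 21.2 and 15.2 in KPAT tumours 1 to 5, at 30.1, 32.1, 47, 66.2 and 61.4 in KAT tumours 1 to 5 and at 35.7, 27.2, 20.4, 16.2 and 20.3 in KPT tumours 1 to 5. KAT and KPT tumours overlapped, and the rise in KAT tumours (log2 fold change 0.96, SE 0.33, limma adjusted p = 0.0379) was lost without KAT 3, KAT 4, KAT 5, KPT 3, KPT 4 or KPT 5 (limma adjusted p up to 0.0943). In KPAT against KPT tumours Ntn4 was not called (log2 fold change 0.26, SE 0.33, limma adjusted p = 0.618). Ntn1, the classical secreted netrin, averaged 14.6 ± 6.88 in KPAT tumours, 37.1 ± 19.9 in KAT tumours and 20.3 ± 11.4 in KPT tumours, with log2 fold changes of -0.37 in KPAT and 0.88 in KAT against KPT tumours, neither called. Ntn5 was low, at 0.365 to 1.36 in KPAT tumours, 0.494 to 3.68 in KAT tumours and 0.446 to 2.16 in KPT tumours, and 23.42% of its exon bases lie opposite Sec1.

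Compared per kilobase of exon, the levels of the members covered more than 3 orders of magnitude, read on the plot of levels per kilobase. Exon length here joins all annotated exons of a gene, not those of the transcripts expressed. Ranks and shares per kilobase are therefore not transcript abundances, and genes with much annotated exon sequence may be set too low. Over all tumours Plxnb2 was the highest at 81.5 deposited units per kilobase, followed by Efna1 at 57.4, Ephb4 at 37.1 and Efnb1 at 33.7. Efna1 per kilobase was 30.7 in KPAT tumours, 32.1 in KAT tumours and 109 in KPT tumours. Plxnb2 per kilobase was 78.2 in KPAT, 62.9 in KAT and 103 in KPT tumours, so Efna1 stood next to Plxnb2 in KPT tumours and well below it in KPAT and KAT tumours.

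**Figure D3:**
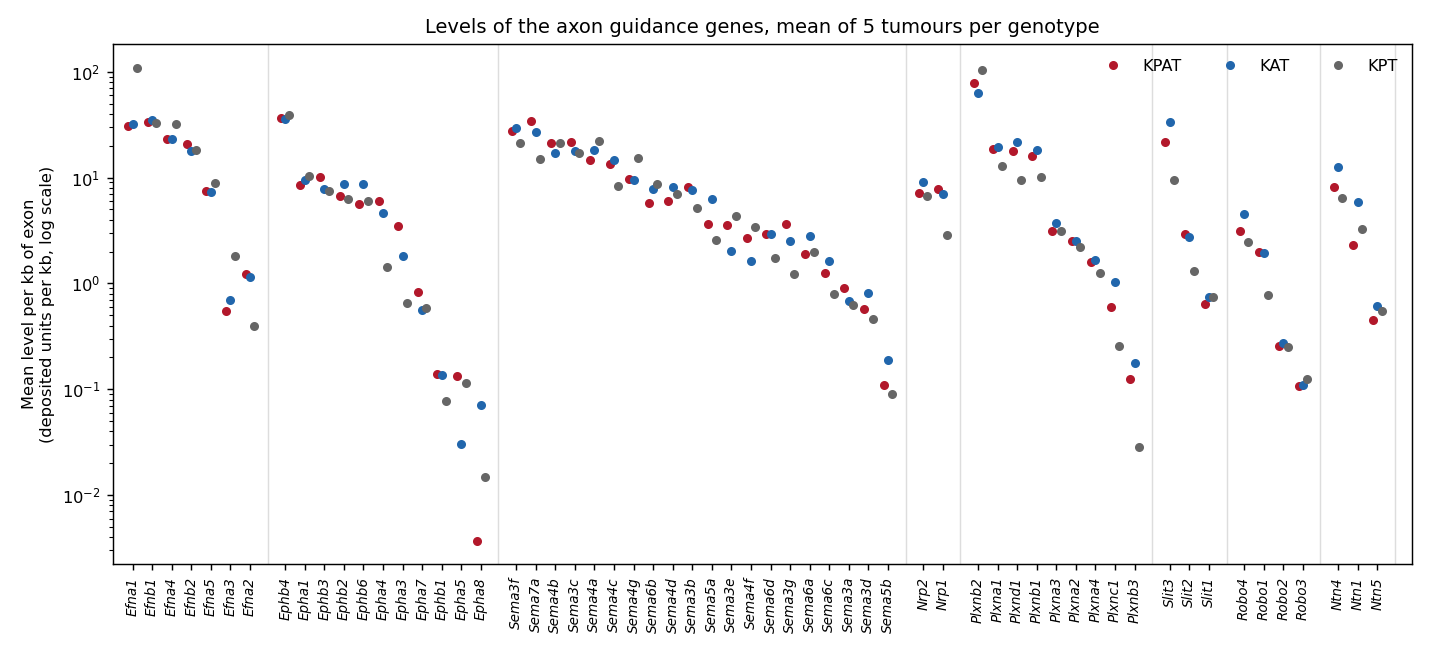
Mean level per kilobase of exon (deposited units per kilobase, log axis) of the 59 members in KPAT, KAT and KPT tumours (n = 5 each), ordered within families. By the mean over all tumours, Plxnb2 and Efna1 are the highest members, and Epha8, Epha5 and Plxnb3 are the lowest. The order differs within single genotypes.

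The make-up of several families differed between the genotypes, given here as a description without a test. Efna1 made up 48.5% of the summed ephrin-A level per kilobase in KPAT tumours, 49.9% in KAT tumours and 69% in KPT tumours. The ephrin-A sums were 63.2 in KPAT, 64.2 in KAT and 152.6 in KPT tumours. Nrp1 made up 53.3% in KPAT, 43.2% in KAT and 30.1% in KPT tumours within the neuropilins. Epha1 led the 6 EphA receptors among the members in each genotype, at 45.5% in KPAT, 57.5% in KAT and 79.2% in KPT tumours. Epha4 made up 31% in KPAT, 27.6% in KAT and 10.5% in KPT tumours. Epha3 made up 18.3% in KPAT, 11% in KAT and 5.31% in KPT tumours. Plxnb2 made up 56.3% of the plexins in KPAT tumours, 48% in KAT tumours and 72.1% in KPT tumours. The plexin sum itself was close, at 138.7 ± 16.3 per kilobase in KPAT, 131.4 ± 7.47 in KAT and 142.6 ± 14.9 in KPT tumours (SD, n = 5 each), so the smaller share of Plxnb2 stood beside larger shares of Plxna1, Plxnb1 and Plxnd1.

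**Figure D4:**
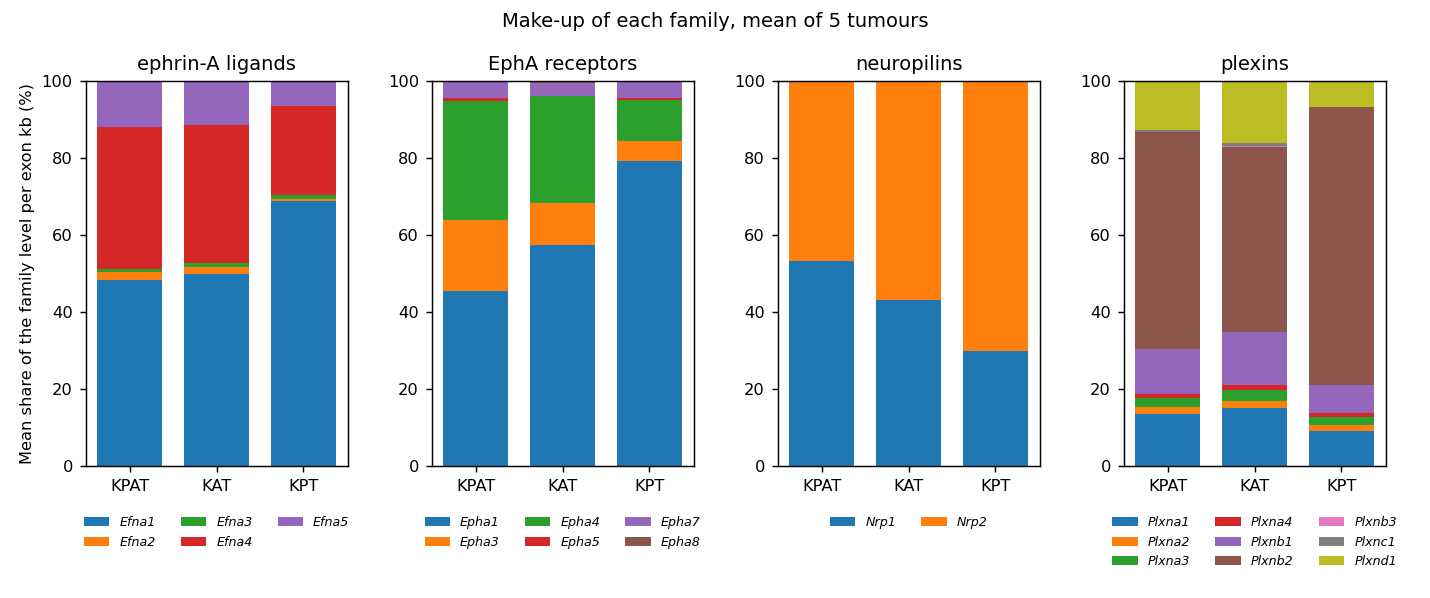
Share in percent of each member in the summed level per kilobase of 4 families (ephrin-A ligands, EphA receptors, neuropilins and plexins), as means over 5 tumours in KPAT, KAT and KPT tumours from left to right. The share of Efna1 is 48.5% in KPAT and 69% in KPT tumours, and that of Nrp1 is 53.3% in KPAT and 30.1% in KPT tumours.

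The tumours at the ends of the ranges recurred. Of the 13 members called higher in KPAT against KPT tumours, 8 were highest in KPAT 2 and 6 were lowest in KPT 3. Of the 1520 genes called higher over the whole table, 29.7% were highest in KPAT 2 and 32.4% lowest in KPT 3. Of the 20 members called higher in KAT against KPT tumours, 8 were lowest in KPT 3, beside 33.4% of the 2599 genes called higher. KPAT 2 had the highest fibroblast sum of all tumours and KPT 3 the lowest.

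Set directly against each other, KPAT and KAT tumours, which differ in floxed Trp53, showed no called member with limma, edgeR or DESeq2. Over all tested genes 0.0481% were called, 0.036% higher and 0.012% lower. At an unadjusted p below 0.05 there were 5 of 58 members, beside 1798 of all 16648 tested genes, and 1 member (Epha7) did not overlap, beside 2.72% of all tested genes. Epha7 was at 7.11 to 9.91 (median 7.51) in KPAT tumours, 4.66 to 6.80 (median 5.22) in KAT tumours and 2.90 to 13.5 (median 4.51) in KPT tumours, with a log2 fold change of 0.57 and a limma adjusted p of 0.545. The largest differences among the members with the smallest p were in Ntn1 (log2 fold change -1.25, SE 0.51, limma adjusted p = 0.392) and Sema3e, given above. A difference that misses the threshold here is not shown to be absent.

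Genes that act with the members were counted from 2 lists. Of 20 tested other guidance receptors and co-receptors, 6 rose in KPAT against KPT tumours and 9 in KAT against KPT tumours, and none fell by limma. That list also holds Rgmb, described below as a ligand, so its counts are not of receptors alone. Of 51 genes of intracellular guidance signalling, 6 rose and 3 fell in KPAT against KPT tumours, and 10 rose and 4 fell in KAT against KPT tumours. These are 17.6% and 27.5% of the list, near the 16.5% and 28.9% of all tested genes, while the called receptors and co-receptors are 30% and 45% of theirs. The median log2 fold change was 0.87 in KPAT and 0.93 in KAT against KPT tumours for the receptors and co-receptors, and 0.05 and 0.12 for the signalling genes, beside 0.016 and 0.026 over all tested genes. Mical1, a monooxygenase that acts on actin downstream of plexins, averaged 47.8 ± 13 in KPAT, 58.6 ± 26.9 in KAT and 15.7 ± 7.94 in KPT tumours. It rose in KPAT (log2 fold change 1.68, SE 0.32, limma adjusted p = 0.00517) and in KAT tumours (log2 fold change 1.93, SE 0.32, limma adjusted p = 0.000880) against KPT tumours. Rgmb, a ligand of neogenin, averaged 41.1 ± 4.01 in KPAT and 21.7 ± 2.30 in KPT tumours (log2 fold change 0.92, SE 0.18, limma adjusted p = 0.00530). Lrrc4c, the netrin-G1 ligand, was low, at 1.72 ± 0.683 in KPAT and 0.443 ± 0.186 in KPT tumours (log2 fold change 1.84, SE 0.40, limma adjusted p = 0.00918).

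Dpysl4, of the family of collapsin response mediator proteins, averaged 1.10 ± 0.595 in KPAT, 1.81 ± 0.721 in KAT and 0.116 ± 0.0873 in KPT tumours, a low level, and rose in KPAT (log2 fold change 2.76, SE 0.58, limma adjusted p = 0.00778) and in KAT tumours (log2 fold change 3.60, SE 0.58, limma adjusted p = 0.000720) against KPT tumours. Cd72, a B cell receptor of Sema4d, averaged 10.3 ± 4.97 in KAT and 1.18 ± 0.432 in KPT tumours (log2 fold change 2.95, SE 0.46, limma adjusted p = 0.000593), and the part of the B cell markers given above in that difference was not tested. Ntng2, a GPI-anchored netrin relative, averaged 17 ± 5.20 in KAT and 4.54 ± 2.03 in KPT tumours (log2 fold change 1.99, SE 0.35, limma adjusted p = 0.00120). The genes that fell were, chosen after their values were seen, Rac1, Pak1 and Limk2 in both comparisons and Ngef in KAT against KPT tumours. Rac1, a small GTPase of actin assembly, averaged 315 ± 26.8 in KPAT, 297 ± 38.5 in KAT and 423 ± 43.5 in KPT tumours, with log2 fold changes of -0.42 in KPAT and -0.51 in KAT against KPT tumours. Its effector kinase Pak1 had log2 fold changes of -0.51 in KPAT and -0.55 in KAT. Limk2, a kinase of cofilin, lost both calls without single libraries, among them KPT 1, KPT 3 or KPT 5 (limma adjusted p up to 0.103 and 0.0839). In KPAT against KAT tumours no gene of these lists was called by limma, edgeR or DESeq2, and 3 had an unadjusted p below 0.05.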

How the data were processed

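RNeasy midi columns gave the tumour RNA, and libraries from a TruSeq RNA kit without strand marking were run on a HiSeq4000, per the labels' protocols. HISAT2 2.0.4 and the build mm10 (GRCm38) are named in the submitters' processing notes. How reads were counted and normalized is not given in the sources used here, nor whether strand was used.

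The authors' deposited signal values are whole reads over a library factor, as 100% of them came within 0.01 of a whole number once that factor was put back. For the test every value was scaled by 19.478, the mean reads per unit (geometric, over libraries), to normalized counts, the scale that the design had assumed. Genes with a mean of at least 10 were kept (16648), log2(normalized count + 1) of all 15 libraries entered a limma 3.58.1 model of group means (R 4.3.3, eBayes with trend), and two-sided p-values were adjusted over all tested genes. Symbols, exon lengths and coordinates came from GENCODE M21, which gave a symbol for 20585 gene IDs. The labels number tumours separately but do not say that each is from its own mouse, so p-values measure the spread between these samples. Precision is lowest for genes with few reads.

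The members and lists were chosen with earlier results of these data known. The text gives, for each comparison, the values per tumour of the called members with the 12 smallest p and of the member with the highest level per exon length in each family, and up to 4 called genes of the guidance lists. Alternatives were pseudocounts of 0.5 and 8, no minimum or a minimum of 50, scaling by median of ratios or by quantiles, only the groups compared, robust eBayes, cell type levels as covariates, the replicate number as a block, each library left out, and edgeR 4.0.16 and DESeq2 1.42.0 on the recovered reads. The deposited scale, and KPT 1 and KAT 1 left out together, were added after seeing the data. The model was tested on simulated data. Python 3.11.15 was used for tables and plots.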

Additional observations from a re-analysis of the deposited data

Results flagged for a closer look

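Plxnd1, the plexin receptor of Sema3e, was at 192 in KPAT 2, while the other KPAT tumours were at 105 to 119. The gap between KPAT 2 and the nearest of them was 0.83 of the whole range of KPAT tumours, above Dixon's 95% critical value for 5 samples. Of 78 groups examined (26 members in 3 genotypes) this was the 1 that stood out, and chance alone marks about 1 in 20 such groups. The other members were not examined in this way, and single tumours stood apart among them too. Examples are Sema4g in KAT 1, at 261 beside 33.3 to 40.5 in the other KAT tumours, and Epha5 in KPT 4, at 8.36 beside at most 0.895 in the other KPT tumours. KPAT 2 also had the highest endothelial, mural and fibroblast sums of the KPAT tumours, whose part in the value was not tested.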

How the results depend on the processing

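Pseudocounts of 0.5 and 8, median-of-ratios scaling, robust eBayes, edgeR and DESeq2 kept all 40 member calls of the comparisons with KPT tumours, and these calls kept their direction under every alternative run except Slit3 in KAT against KPT tumours with the fibroblast covariate (-0.35, not called). The floxed gene Cdkn2a, not called, turned to -0.44 there with the ductal covariate. No minimum kept 39 of the 40, only the groups compared 38, quantile scaling 35, and leaving out KPT 1 and KAT 1, 34. The calls lost under these 4 settings were of Efna2, Efna3, Plxna1, Plxnb2, Sema3g, Sema6c and Slit2.

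Covariates moved the counts most. The members called in KPAT against KPT tumours were 16 without a covariate, 3 with the fibroblast level and 2 with the ductal level. In KAT against KPT tumours they were 24, and 6, 14 and 8 with the fibroblast, endothelial and ductal levels. Other guidance genes were 15 in KPAT against KPT tumours, and 0 and 1 with the fibroblast and ductal levels in limma. In KAT against KPT tumours they were 23, then 1, 13 and 7 with the fibroblast, endothelial and ductal levels and 14 on the deposited scale, where fewer genes pass the minimum. Over all genes, 2752 calls in KPAT against KPT tumours became 180 and 128 with the fibroblast and ductal levels and 1811 with only the groups compared, and 4805 in KAT against KPT tumours became 844 and 1344 with these levels. The 8 calls in KPAT against KAT tumours became 17 under quantile scaling, 4 on the deposited scale, 15 with only the groups compared, 13 with the endothelial level and 284 with DESeq2. The cause of these shifts was not tested.

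Leaving out each library in turn gave 13 to 16 members in KPAT against KPT tumours, 20 to 24 in KAT against KPT tumours and 0 to 0 in KPAT against KAT tumours. Other guidance genes ranged over 10 to 19, 16 to 21 and 0 to 0, and all genes over 1687 to 2895 (the lowest without KPAT 2), 3539 to 4660 and 7 to 45 (the highest without KAT 2).

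With the replicate number as a block, 14, 23 and 0 members and 2248, 4313 and 7 genes were called in KPAT against KPT, KAT against KPT and KPAT against KAT tumours. Lost under the block were Plxnb2 and Plxnd1 in KPAT against KPT tumours, and Ntn4 and Plxna1 in KAT against KPT tumours, where Epha3 was gained. Same-numbered correlations ran from -0.209 to 0.246, and a tumour correlated best with its own number in 3 of 15 cases. Among these was tumour 1 in KPAT against KPT (0.218) and in KAT against KPT tumours (0.246). Such correlations cannot decide whether the numbers pair the tumours.

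Depth limits the low members, such as Efna2, Efna3 and Plxnb3, whose values rest on few reads.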
